A study of Mus musculus with 6 samples.

Results

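Insulin and the other islet hormones leave the cell by regulated exocytosis, in which a secretory granule docks at the plasma membrane and fuses with it when calcium rises. A VAMP protein on the granule pairs with a syntaxin and a SNAP-25 protein on the plasma membrane, and the resulting SNARE complex pulls the membranes together. Syntaxin-binding proteins guide the syntaxins, Munc13, RIM and complexin proteins prepare and restrain the fusion step, small GTPases of the Rab3 and Rab27 kind carry the granule to its site, and synaptotagmins read the calcium signal. In the pancreatic β-cell this machinery is shared with the nerve terminal, which is where most of these genes took their names.

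The genes described here are the 61 rows of a table of 19342 genes whose symbol is *Syt*, *Stx*, *Stxbp*, *Vamp* or *Snap* with a number, together with 11 named regulators of granule docking and priming (*Rab3a*, *Rab3b*, *Rab3c*, *Rab3d*, *Rab27a*, *Rims1*, *Rims2*, *Unc13a*, *Unc13b*, *Cplx1* and *Cplx2*). They were chosen by name, so 1 of them, *Snap91*, is an adaptor of clathrin-mediated endocytosis that shares only the letters, and a group of endomembrane syntaxins serves the Golgi, endosomes and autophagosomes.

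Islets were collected by collagenase P digestion from FXR+/+ mice, wild type for the nuclear bile acid receptor FXR, and from FXR-/- mice of the C57Bl/6 background, in which the *Nr1h4* gene that encodes FXR is knocked out. All mice were 3 months old and no treatment besides the isolation is labelled. Each genotype had 1 library from female mice (female 1) and 2 from male mice (male 1 and male 2), 6 in all, and values below are given in that order. How many mice a library holds is not stated, so p-values measure the spread between these libraries. *Nr1h4*, which checks the labels, stood at 14.2, 13.6 and 12.2 CPM (counts relative to library size after TMM scaling) in FXR+/+ and at 5.67, 7.63 and 5.81 CPM in FXR-/-, with no overlap. Its log2 fold change was -1.07 ± 0.160 (SE), with an adjusted p of 0.215 in edgeR, 0.0437 with the replicate number as a block and 8.59e-05 in DESeq2. From the exon counts summed per gene it was -1.78 (adjusted p = 0.0966 in edgeR).

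The libraries held between 20629306 and 30139235 counts on genes, of which the 61 genes took 0.436% to 0.555% and *Ins1* and *Ins2* 17.5% to 23.9%. All 9 β-cell markers on the list fixed for this tissue were counted, with a summed level of 186900 to 271700 CPM. The libraries also held exocrine RNA in unequal amounts. The summed level of 20 acinar genes was 48280, 127400 and 42110 CPM in FXR+/+ and 61140, 145200 and 86780 CPM in FXR-/-, so the male 1 library stood highest in both genotypes. In whole islets, fewer cells of a type and less RNA per cell cannot be told apart.

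Closely related SNARE genes share stretches of sequence, which bears on how far their counts can be kept apart. The region around the central arginine of the SNARE motif is shown for *Vamp1*, *Vamp2* and *Vamp3*, read 5′ to 3′ from GENCODE transcripts on GRCm38, with the arginine codon in capitals. The windows lie in coding exons at chr6:125218956-125219012 (plus strand), chr11:69089776-69089832 (plus) and chr4:151050974-151051030 (minus).
Vamp1: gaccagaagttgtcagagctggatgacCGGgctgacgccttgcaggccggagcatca
Vamp2: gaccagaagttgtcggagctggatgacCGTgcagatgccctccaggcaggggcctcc
Vamp3: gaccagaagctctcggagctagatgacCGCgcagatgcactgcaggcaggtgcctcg
Over these 57 bases *Vamp1* differs from *Vamp2* at 10 positions and *Vamp3* at 8. Across whole transcripts, the longest run shared by 19 related pairs ranged from 14 bases (*Syt5* with *Syt9*) to 33 bases (*Rab3b* with *Rab3d*). The longest run was 32 bases for *Cplx1* with *Cplx2* and for *Unc13a* with *Unc13b*, and 25 bases for *Snap23* with *Snap25*. The read length and the rule for reads that match several places were not given in the sources used here.

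*Snap25* carries a pair of mutually exclusive exons that encode the SNAP-25a (upstream exon) and SNAP-25b (downstream exon) forms, which differ in the stretch around the palmitoylated cysteines. They are shown because the deposited counts per exon separate them. Both are coding, 118 bases long and on the plus strand of GRCm38, the upstream exon at chr2:136769743-136769860 and the downstream exon at chr2:136770057-136770174. Capitals mark the 31 bases at which they differ, which leaves 73.7% identical.
Upstream exon: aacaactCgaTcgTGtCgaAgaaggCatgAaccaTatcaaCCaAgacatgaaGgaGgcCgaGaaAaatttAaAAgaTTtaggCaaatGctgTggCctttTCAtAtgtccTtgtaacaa
Downstream exon: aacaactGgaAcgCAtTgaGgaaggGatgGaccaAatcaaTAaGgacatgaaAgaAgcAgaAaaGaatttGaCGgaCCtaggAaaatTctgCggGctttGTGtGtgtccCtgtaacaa

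Most of the 61 genes were expressed well above the counting limit. Their mean level over the 6 libraries was at least 100 CPM for 9 genes, 10 to 100 CPM for 37, 1 to 10 CPM for 8 and under 1 CPM for 7. A total of 57 passed the filter on low counts. The 4 that did not were *Rims1* (53 counts in all 6 libraries together), *Stx19* (15 counts), *Syt8* (4 counts, all in 1 library) and *Syt10* (1 count). A count of 0 allows up to 3 counts, which is 0.0947 to 0.158 CPM depending on the library, for counting error only. *Syt13* alone took 23.2% to 25.5% of the counts of all 61 genes in a library and *Cplx2* 10.8% to 14.1%. Per kilobase of the longest coding transcript, *Syt13* was highest at 322 CPM per kb, followed by *Cplx2* at 129, *Vamp2* at 95.1 and *Rab27a* at 78.4 CPM per kb. With the exon lengths of the deposited exon table they stood at 323, 129, 96.9 and 72.1 CPM per kb, and *Vamp8*, at 29.7 CPM per kb by the transcript, stood at 78.4 CPM per kb, above *Rab27a*.

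**Figure D1:**
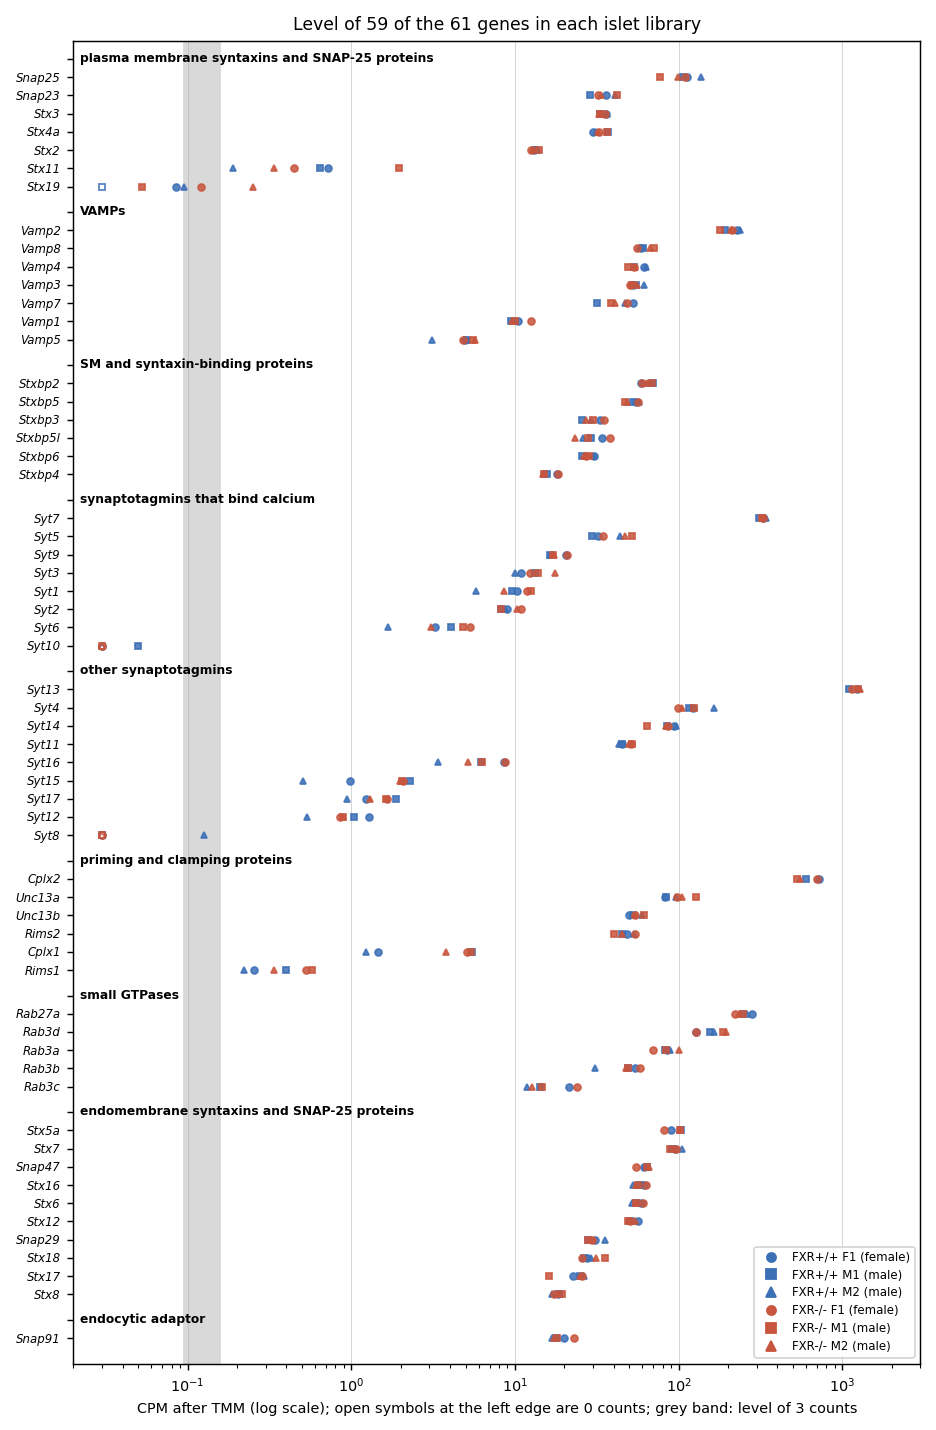
Each row is 1 of 59 of the 61 genes, grouped by role, and each point is 1 library, on a log scale of CPM after TMM scaling; colour marks the genotype and shape the replicate, and the grey band spans the level of 3 counts, 0.0947 to 0.158 CPM. *Syt13* and *Cplx2* lie at the right and the libraries of most genes lie close together, while *Cplx1*, *Syt15* and *Stx11* spread widely.

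The spread between libraries was close to that of all genes. Of the 58 genes with more than 3 counts in every library, the highest library exceeded the lowest by less than 1.5 times in 36, by 1.5 to 2 times in 12 and by more than that in 10. The median of this ratio was 1.35, beside 1.40 over the 14490 genes of the table that met the same limit. The steadiest were *Syt7* (1.10), *Stx3* (1.11) and *Stx2* (1.11), and the most variable were *Stx11* (10.3), *Syt15* (4.51), *Cplx1* (4.47) and *Syt6* (3.17), all low genes.

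On the plasma membrane side, *Snap25* encodes the SNAP-25 protein that supplies a pair of helices to the SNARE complex. It stood at 112, 106 and 137 CPM in FXR+/+ and at 109, 76.9 and 98.7 CPM in FXR-/-. The lowest libraries were FXR-/-, but the groups overlapped. *Snap23*, the form found in most tissues, stood at 36.2, 28.9 and 40.6 CPM in FXR+/+ and at 32.3, 42.1 and 33.7 CPM in FXR-/-. Among 5 plasma membrane syntaxins (*Stx2*, *Stx3*, *Stx4a*, *Stx11* and *Stx19*), *Stx4a*, which takes part in granule fusion in the β-cell, took 56.5% ± 3.53 of their summed CPM per kb in FXR+/+ (SD, n = 3), *Stx3* took 31.7% ± 2.97 and *Stx2* took 11.5% ± 0.578. In FXR-/- the shares were 58.1% ± 1.59, 30.1% ± 2.16 and 11.2% ± 0.261, within the spread between libraries. With the exon-table lengths *Stx4a* took 66.0% in FXR+/+ and stayed ahead among these 5. No row of the gene counts carried the name *Stx1a*, so these shares leave it out. They do not rank *Stx4a* among all plasma membrane syntaxins. In GENCODE vM21, *Stx4a* overlaps exon sequence of a gene on the other strand, and the use of strand in the counting is not stated. In the deposited exon counts the first exon of *Stx4a* starts at chr7:127841808, beyond the end of that gene. Whether the gene counts rest on the same exons is not stated.

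On the granule side, *Vamp2* is the VAMP that pairs with SNAP-25 in insulin granules. Its level was 226, 192 and 238 CPM in FXR+/+ and 213, 179 and 210 CPM in FXR-/-. Of the 3 VAMPs whose sequences are shown above, *Vamp2* took 76.8% ± 1.68 of the CPM per kb in FXR+/+ and 76.1% ± 1.54 in FXR-/-, *Vamp3* took 20.6% ± 1.65 and 20.9% ± 1.69, and *Vamp1* 2.57% ± 0.178 and 2.98% ± 0.394 (SD, n = 3 each). Exact permutation tests of these 3 shares between the genotypes gave two-sided p = 0.6, 0.7 and 0.3, in a design where the smallest possible p is 0.1. *Vamp8*, of late endosomes and granules, stood at 55.9 to 70.9 CPM in the 6 libraries, *Vamp4* of the trans-Golgi at 49.0 to 63.4 CPM, and *Vamp7*, a VAMP of lysosomes, at 31.5 to 52.3 CPM. *Vamp5*, known from muscle, was lowest at 3.09 to 5.68 CPM.

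Of the syntaxin-binding proteins, *Stxbp2*, which serves granule release in blood and epithelial cells, stood at 58.6 to 69.4 CPM and *Stxbp3* at 25.8 to 35.1 CPM across the 6 libraries. The tomosyn genes, whose proteins compete for SNARE partners, were *Stxbp5* at 47.1 to 57.2 CPM and *Stxbp5l* at 23.2 to 38.0 CPM.

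Among the synaptotagmins known to bind calcium, *Syt7*, the sensor of slow and sustained release in β-cells, was far the highest. It stood at 325, 311 and 344 CPM in FXR+/+ and at 328, 321 and 324 CPM in FXR-/-, with the highest library 1.10 times the lowest. *Syt5*, a calcium sensor of dense granules, followed at 29.5 to 52.1 CPM, *Syt9* at 16.3 to 20.7 CPM and *Syt3* at 9.97 to 17.5 CPM. *Syt1* and *Syt2*, the fast sensors of nerve terminals, stood at 5.81 to 12.5 and 8.18 to 10.9 CPM. *Syt6* was lower still at 1.67 to 5.31 CPM.

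The synaptotagmins not thought to bind calcium held the most abundant gene of the whole set. *Syt13*, an atypical synaptotagmin of endocrine cells, stood at 1229, 1102 and 1272 CPM in FXR+/+ and at 1147, 1239 and 1277 CPM in FXR-/-. By CPM per kb it made up 70.0% ± 0.893 of all 17 synaptotagmins in FXR+/+ and 70.1% ± 0.775 in FXR-/- (SD, n = 3), with *Syt7* at 10.8% ± 0.308 and 10.6% ± 0.633. *Syt4*, of immature and neuroendocrine granules, took 7.50% ± 1.01 in FXR+/+ and 6.04% ± 0.595 in FXR-/- (exact permutation test, two-sided p = 0.1, the smallest possible), and 1 FXR-/- library (male 1) lay within 0.1 percentage points of the lowest FXR+/+ library. *Syt14* stood at 64.2 to 95.7 CPM and *Syt11* at 43.4 to 51.9 CPM, while *Syt12*, *Syt15*, *Syt16* and *Syt17* stayed between 0.505 and 8.67 CPM.

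Among the proteins that prime and clamp the granule, *Cplx2*, a complexin that binds the assembled SNARE complex, was highest at 717, 597 and 711 CPM in FXR+/+ and 697, 528 and 553 CPM in FXR-/-. It took 99.0% ± 0.932 of the CPM per kb of the pair of complexins in FXR+/+ and 98.2% ± 0.392 in FXR-/-, so that *Cplx1* was a minor component in all 6 libraries. *Rims2*, a RIM scaffold of docking sites, took 98.9% to 99.7% against *Rims1* per library, and 89.4% to 96.7% with the exon-table lengths. *Unc13a* and *Unc13b* encode Munc13-1 and Munc13-2, which open syntaxin for assembly. *Unc13b* stood at 49.9 to 61.7 CPM.

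Of the small GTPases, *Rab27a*, which links insulin granules to the cell cortex, was highest in CPM at 282, 248 and 261 in FXR+/+ and 220, 247 and 233 in FXR-/-. The Rab3 genes, whose products sit on granules and bind RIM, were led per kb by *Rab3a*, with 50.5% ± 1.74 of the family in FXR+/+ and 47.0% ± 2.03 in FXR-/- (exact permutation test, two-sided p = 0.2). *Rab3d* took 35.4% ± 3.91 and 37.5% ± 3.62, *Rab3b* 12.4% ± 3.54 and 13.7% ± 3.58, and *Rab3c* 1.75% ± 0.589 and 1.84% ± 0.939. The endomembrane SNAREs ranged from *Stx5a* of the Golgi (81.3 to 103 CPM) and *Stx7* of late endosomes (88.4 to 105 CPM) to *Stx17* of autophagosomes (16.3 to 26.6 CPM) and *Stx8* (16.7 to 19.5 CPM). *Snap47* stood at 55.0 to 65.6 CPM and *Snap91*, the endocytic adaptor, at 16.9 to 23.0 CPM.

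**Figure D2:**
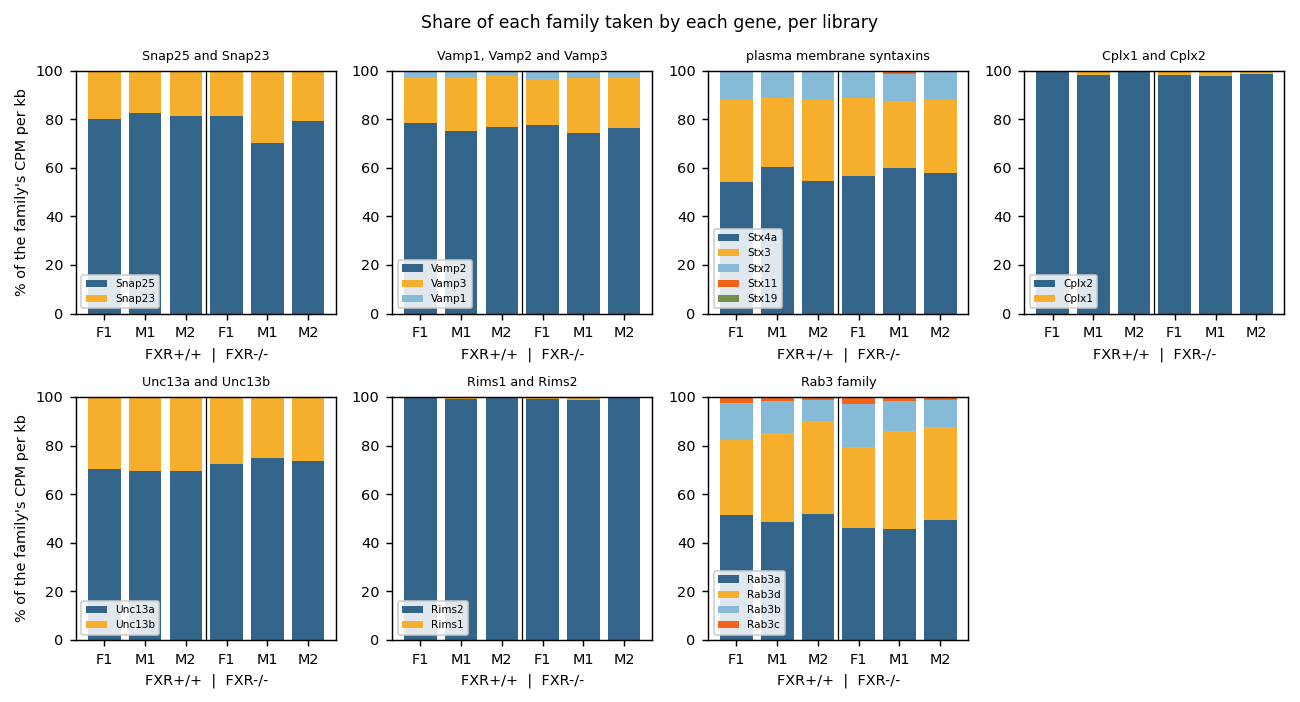
Each panel is a family of related genes and each bar 1 library, FXR+/+ left and FXR-/- right of the line; segments give each gene's percentage of the family's summed CPM per kb of the longest coding transcript. *Vamp2*, *Cplx2* and *Rims2* lead their families in all 6 libraries, and *Snap25* takes 70.2% to 82.6% against *Snap23*.

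The main comparison of the design is that of the genotypes, which asks what loss of FXR does to islet transcripts. By the quasi-likelihood test of edgeR, with sex as a further term, none of the 57 tested genes had an adjusted p under 0.05 for genotype, nor had any of the 14619 genes tested (0%). The smallest adjusted p among the 57 was 0.430. An unadjusted p under 0.05 was found for 2 of 57 (3.51%), beside 10.3% of all genes tested. Both had higher values in FXR-/- (6.19% of all genes were on that side) and 0 had lower values (4.16% of all genes). DESeq2 called 0 of the 57, beside 1.16% of all genes, and gave 3 an unadjusted p under 0.05 (5.26%, beside 9.10% of all genes). With the replicate number as a block, which takes out what same-numbered libraries share, 0 of the 57 were called (0.164% of all genes) and 10 had an unadjusted p under 0.05 (17.5%, beside 16.1% of all genes).

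The differences of the 57 genes were small. Their median log2 fold change was 0.03, with 31 higher and 26 lower in FXR-/-, beside a median of 0.01 over all genes tested. Scaled by library size alone, the split became 18 higher and 39 lower, as the median of all genes moved from 0.01 to -0.09. The median absolute log2 fold change was 0.09, beside 0.14 over all genes tested. The median level of the 57 genes was 39.9 CPM, beside 18.0 CPM over all genes. The part of level in this difference was not tested. The 95% interval of the log2 fold change lay within ±0.5 for 38 of the 57 and within ±1 for 52. The FXR-/- libraries lay wholly to 1 side of the FXR+/+ libraries in 3 of 57 genes (5.26%, beside 15.4% of all genes), above them in 2 (8.02% of all genes) and below them in 1 (7.37% of all genes). By role, the median log2 fold change was 0.33 for the 7 tested synaptotagmins known to bind calcium (6 higher, 1 lower, none passing the test), 0.10 for the 8 other synaptotagmins, 0.03 for the 7 plasma membrane SNAREs, -0.03 for the 7 VAMPs, -0.02 for the 7 syntaxin-binding proteins, 0.06 for the 5 priming and clamping proteins, 0.09 for the 5 small GTPases and -0.04 for the 10 endomembrane SNAREs. For the calcium-binding synaptotagmins the median was 0.21 with a term for acinar RNA. *Syt1* moved from 0.37 to 0.11, *Syt6* from 0.57 to 0.21 and *Syt3* from 0.35 to 0.30. The others rose, *Syt5* from 0.33 to 0.46, *Syt2* from 0.18 to 0.25, *Syt9* from 0.05 to 0.06 and *Syt7* from -0.01 to 0.03. With the replicate block 4 of these 7 (*Syt1*, *Syt3*, *Syt5* and *Syt6*, named after their values were seen) had an unadjusted p under 0.05, beside 16.1% of all genes. Acinar marker sums were higher in FXR-/- in each same-numbered pair, and neural and glial sums in the female 1 and male 2 pairs. The part of neural and glial RNA was not tested. The acinar term also turned the sign of the median for the other synaptotagmins (-0.07), the plasma membrane SNAREs (-0.03) and the VAMPs (0.09), and for the 10 endomembrane SNAREs the median was -0.01.

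**Figure D3:**
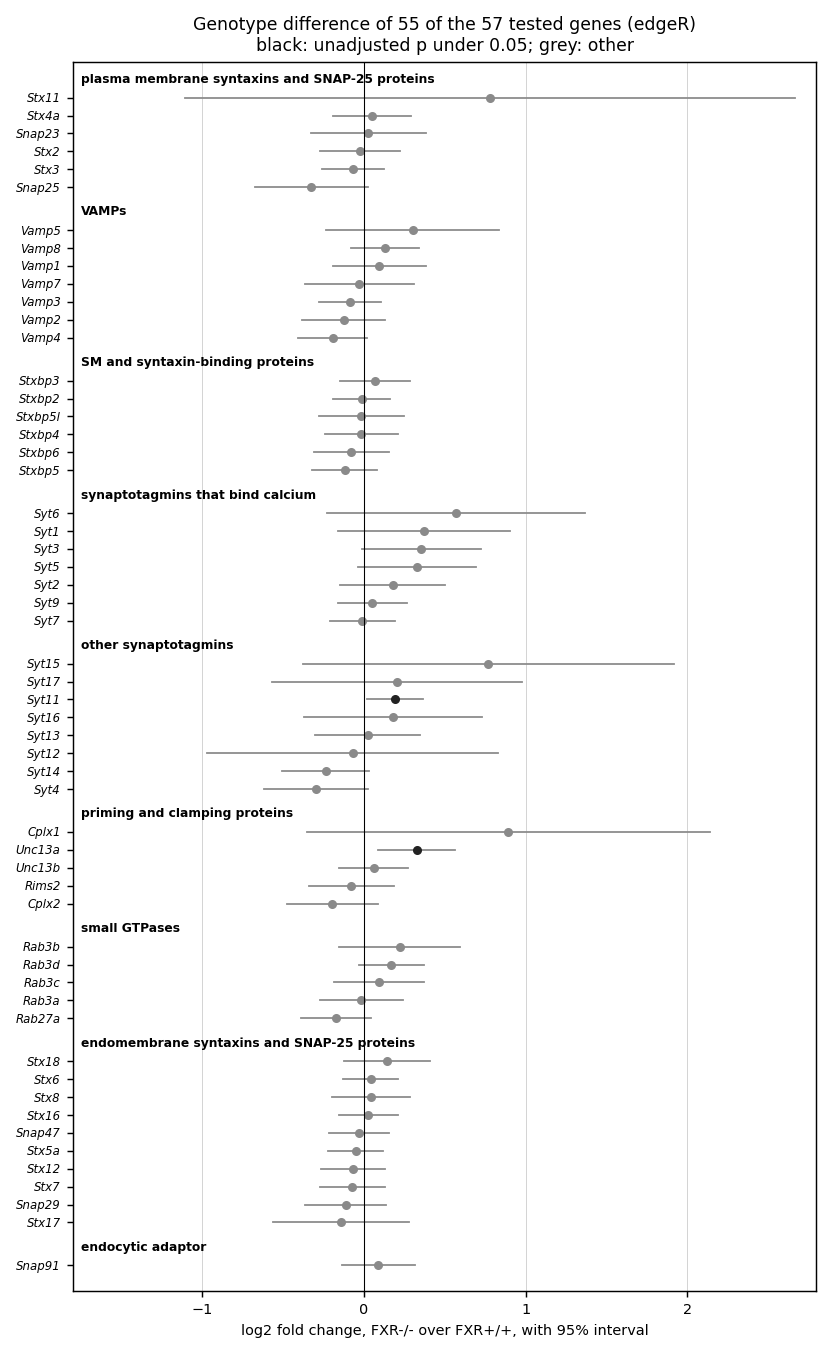
Each point is the log2 fold change of FXR-/- over FXR+/+ in edgeR and each line its 95% interval, for 55 of the 57 tested genes by role. Intervals are longest for *Stx11*, *Cplx1* and *Syt15*. Among those plotted the interval lies wholly above 0 only for *Unc13a* and *Syt11*, the 2 black points.

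*Unc13a*, the Munc13 of synaptic priming, had the smallest p of the set. It stood at 82.0, 83.7 and 95.9 CPM in FXR+/+ and at 97.5, 127 and 105 CPM in FXR-/-. All 3 FXR-/- libraries lay above all 3 FXR+/+ libraries, by a ratio of 1.19, 1.51 and 1.09 between same-numbered libraries. The log2 fold change was 0.33 ± 0.102 (SE; 95% interval 0.09 to 0.56), with an unadjusted p of 0.0138 and an adjusted p of 0.430 in edgeR, so it did not pass. Its share of the CPM per kb of *Unc13a* and *Unc13b* was 69.8% ± 0.420 in FXR+/+ and 73.5% ± 1.21 in FXR-/- (SD, n = 3), without overlap (exact permutation test, two-sided p = 0.1, the smallest possible). With the exon-table lengths it was 53.8% ± 0.496 and 58.3% ± 1.51, also without overlap. *Unc13b* itself had a log2 fold change of 0.06 (95% interval -0.15 to 0.27), whose sign turns under library size scaling (-0.04). In GENCODE vM21, *Unc13a* shares 495 bases of exon with *Colgalt1* on the opposite strand. The use of strand in the counting is not stated, nor whether the gene counts rest on the exons of the deposited exon counts. Those exons of *Unc13a* do not reach *Colgalt1*. The first of them by position, at chr8:71626712-71629723 on the minus strand, held the most counts and starts 1801 bases beyond the end of *Colgalt1*. That exon, named after its values were seen, had read counts of 646, 524 and 1080 in the FXR+/+ libraries and of 808, 876 and 833 in the FXR-/- libraries, a log2 fold change of 0.38 ± 0.156 (SE; adjusted p = 0.632 over all exons in edgeR).

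*Syt11*, a synaptotagmin with a role in vesicle retrieval, was the other gene with an unadjusted p under 0.05. It stood at 45.3, 45.2 and 43.4 CPM in FXR+/+ and at 51.5, 51.9 and 49.5 CPM in FXR-/-. The groups did not overlap, and the ratio between same-numbered libraries was 1.14, 1.15 and 1.14. The log2 fold change was 0.19 ± 0.0744 (SE; 95% interval 0.02 to 0.37), with an unadjusted p of 0.0347 and an adjusted p of 0.461 in edgeR. The remaining gene without overlap was *Rab27a*, with all FXR-/- libraries at or below 247 CPM and all FXR+/+ libraries at or above 248 CPM. Its log2 fold change was -0.17 ± 0.0926 (95% interval -0.39 to 0.04), and its male 1 libraries differed by a ratio of only 0.996. With either female library left out it was -0.08, a comparison over the male libraries only, as the term for sex then takes up the other female library.

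*Snap25* had the most negative fold change of the set, -0.33 ± 0.150 on the log2 scale (95% interval -0.68 to 0.02; unadjusted p = 0.0633, adjusted p = 0.487 in edgeR). With the replicate block its unadjusted p was 0.0128 and its adjusted p 0.207. It was lower in FXR-/- in each same-numbered pair, by a ratio of 0.973, 0.726 and 0.719. With 1 library left out the log2 fold change ranged from -0.47 to -0.17. The first came with either female library left out, which compares the male libraries only, and the second without FXR+/+ male 2. *Syt4* stood at 122, 115 and 165 CPM in FXR+/+ and at 98.7, 124 and 104 CPM in FXR-/-, a log2 fold change of -0.30 (95% interval -0.62 to 0.03). The male 1 pair went the other way, with a ratio of 1.07. *Syt4* shares 566 bases of exon with the transcript *Gm26658* on the opposite strand. With a term for acinar RNA, the log2 fold change was -0.17 for *Snap25* and -0.18 for *Syt4*.

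The abundant members named here did not pass the test, and their 95% intervals reached as far as -0.48 and 0.35. The log2 fold change was 0.02 for *Syt13* (95% interval -0.30 to 0.35), -0.20 for *Cplx2* (-0.48 to 0.08), -0.01 for *Syt7* (-0.21 to 0.19) and -0.13 for *Vamp2* (-0.38 to 0.13). Those of *Syt13* and *Snap23* turned negative with library size scaling, at -0.07 and -0.08. Among the rest, *Syt5* had a log2 fold change of 0.33 (-0.04 to 0.69), with its lowest libraries, at 32.3 and 29.5 CPM, in FXR+/+ female 1 and male 1, and *Rab3d* 0.17 (-0.03 to 0.37). That of *Syt5* was 0.14 without FXR+/+ male 1 and 0.10 without both male 1 libraries. With a term for acinar RNA it was 0.46 (unadjusted p = 0.0146 in edgeR).

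*Cplx1*, named after its values were seen, had the largest fold change of the set and depended on which libraries were compared. Its counts were 34, 111 and 39 in FXR+/+ and 125, 102 and 90 in FXR-/-, or 1.45, 5.50 and 1.23 CPM against 5.06, 5.37 and 3.79 CPM. The FXR+/+ male 1 library stood just above the FXR-/- libraries, and the other FXR+/+ libraries stood apart below. Over all 6 libraries the log2 fold change was 0.89 (95% interval -0.35 to 2.14; adjusted p = 0.551 in edgeR). With a term for acinar RNA it was 0.43 (unadjusted p = 0.202), and the FXR+/+ libraries with the lowest *Cplx1* were also those with the lowest acinar sums of all 6, at 48280 and 42110 CPM. Without the male 1 libraries of both genotypes, an alternative added after the values were seen that leaves 1 residual degree of freedom, it was 1.70 ± 0.241 with an adjusted p of 0.0108. It was then the only one of the 57 called (1.62% of all genes tested were), and 10 of the 57 had an unadjusted p under 0.05 (17.5%, beside 15.3% of all genes). *Syt15* also had its 2 lowest libraries in FXR+/+ female 1 and male 2, with 0.980, 2.28 and 0.505 CPM in FXR+/+ and 2.07, 2.05 and 1.98 CPM in FXR-/-. The summed level of 8 neural and glial markers was 51.0, 71.6 and 41.0 CPM in FXR+/+ and 71.2, 71.5 and 64.9 CPM in FXR-/-, so the same 2 FXR+/+ libraries were lowest, and all 8 markers had positive log2 fold changes, 2 of them with an unadjusted p under 0.05. Endothelial markers summed to 342 to 429 CPM in FXR+/+ and 439 to 690 CPM in FXR-/-, and macrophage markers to 104 to 133 CPM and 137 to 168 CPM. The part of such cells in these results was not tested.

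**Figure D4:**
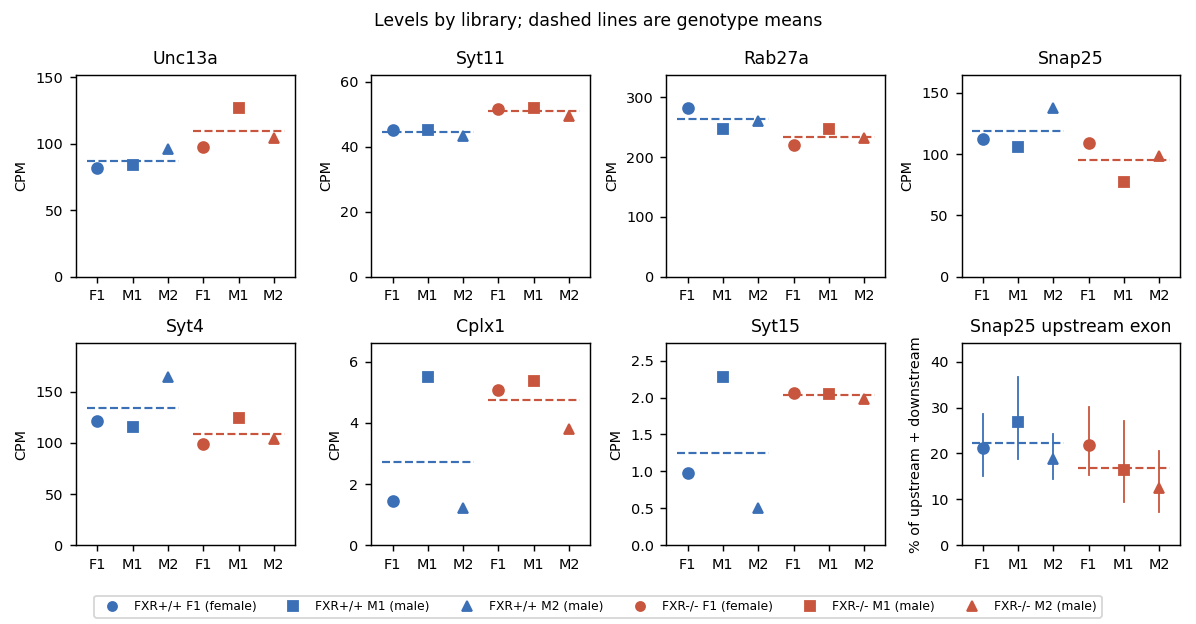
CPM by library for 7 genes, and in the last panel the percentage of the upstream exon among both mutually exclusive *Snap25* exons with 95% Wilson intervals; dashed lines are genotype means. *Unc13a* and *Syt11* show FXR-/- above FXR+/+ in all libraries, while for *Cplx1* and *Syt15* the FXR+/+ male 1 library lies above the FXR-/- libraries and the other FXR+/+ libraries lie below them.

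The deposited counts per exon listed 539 exons of 60 of the 61 genes, of which 127 in 55 genes held enough counts to test. Over all genes, the counts on exons came to only 32.3% to 36.6% of the counts on genes in a library. The exon results therefore rest on fewer reads than the gene results. None had an adjusted p under 0.05 in edgeR (0.0185% of all 26998 exons tested did), with the smallest at 0.623, and none was called with the replicate block. An unadjusted p under 0.05 was reached by 7 (5.51%, beside 7.79% of all exons), of which 5 were lower and 2 higher in FXR-/-, and an unadjusted p under 0.01 by none (1.63% of all exons). The upstream *Snap25* exon had the smallest p, with read counts of 29, 25 and 46 in the FXR+/+ libraries and of 26, 11 and 12 in the FXR-/- libraries (log2 fold change -0.90 ± 0.324, unadjusted p = 0.0185). The downstream exon had read counts of 108, 68 and 198 against 93, 56 and 84 (-0.48 ± 0.232, unadjusted p = 0.0650).

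The downstream exon, which encodes SNAP-25b, was the major form in all libraries. The upstream exon took 21.2% (95% Wilson interval 15.2 to 28.7), 26.9% (18.9 to 36.7) and 18.9% (14.4 to 24.2) of the counts on both exons in FXR+/+. It took 21.8% (15.4 to 30.1), 16.4% (9.42 to 27.1) and 12.5% (7.30 to 20.6) in FXR-/-. These intervals cover counting error only, and none reached above 36.7%. The mean was 22.3% ± 4.13 in FXR+/+ and 16.9% ± 4.69 in FXR-/- (SD, n = 3), a difference within the spread between libraries (exact permutation test, two-sided p = 0.3). Both exons together held 67 to 244 counts per library, and with 3 libraries a group the smallest possible p of this test is 0.1.

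The libraries also allowed the 2 from female mice to be compared with the 4 from male mice, with genotype as a term. The female libraries are also the female 1 pair of same-numbered libraries. A difference between the sexes cannot be told apart from anything else that this pair shares. No member had an adjusted p under 0.05 in edgeR (0.0547% of all genes tested did), while DESeq2 called 2, *Rab3c* and *Rab3d* (0.568% of all genes). For sex, 9 of 57 reached an unadjusted p under 0.05 (15.8%, beside 7.49% of all genes), of which 7 were higher in females (12.3%, beside 3.63%) and 2 lower (3.51%, beside 3.86%). In 16 of 57 (28.1%, beside 15.9% of all genes) the libraries of the sexes lay apart, with females above males in 12 (7.86% of all genes) and below in 4 (8.04% of all genes). Leaving out the FXR-/- female library left 2 members at an unadjusted p under 0.05 (3.51%, beside 2.50% of all genes), and leaving out the FXR+/+ female library left 6 of the 58 then tested (10.3%, beside 5.84%).

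The Rab3 genes, named here after their values were seen, had sex differences of opposite sign, none of which passed in edgeR. *Rab3c* stood at 21.5 and 24.1 CPM in the female libraries and at 14.2, 11.9, 14.6 and 12.6 CPM in the male libraries, a log2 difference of 0.77 ± 0.123 (female minus male; adjusted p = 0.243 in edgeR and 0.00123 in DESeq2). *Rab3b* stood at 53.8 and 58.0 CPM in females and at 49.0, 30.8, 48.8 and 47.7 CPM in males (0.35 ± 0.168, unadjusted p = 0.0731). *Rab3d* stood at 128 and 127 CPM in females and at 155, 164, 186 and 195 CPM in males (-0.45 ± 0.0942; adjusted p = 0.393 in edgeR and 0.00461 in DESeq2). For all 3 genes every female library lay on 1 side of every male library. *Rab3a* overlapped, with a difference of -0.20 ± 0.119. Across the alternatives for this comparison the difference of *Rab3c* stayed between 0.72 and 0.93 and that of *Rab3d* between -0.58 and -0.30.

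The other genes with an unadjusted p under 0.05 for sex were *Stxbp5l* (0.44 ± 0.117), *Syt16* (0.73 ± 0.243), *Snap91* (0.30 ± 0.102), *Syt9* (0.29 ± 0.0965), *Stxbp3* (0.28 ± 0.0974) and *Stxbp4* (0.26 ± 0.101), all with higher values in females, and *Stx5a* (-0.26 ± 0.0779), with lower ones. *Stx5a* stood at 89.5 and 81.3 CPM in the female libraries and at 102 to 103 CPM in all 4 male libraries. Scaled by library size alone, its difference was -0.11 (unadjusted p = 0.314). *Syt16* stood at 8.61 and 8.67 CPM in females and at 6.20, 3.41, 6.31 and 5.18 CPM in males. The endocrine makeup of the libraries moved with sex as well. The 5 α-cell markers summed to 37590 and 38200 CPM in the female libraries and to 21560 to 29990 CPM in the male libraries, and the 9 β-cell markers to 194400 and 186900 CPM in females and 195400 to 271700 CPM in males, with no marker of either list at 0. Acinar markers summed to 48280 to 61140 CPM in females and 42110 to 145200 CPM in males. With a term for acinar RNA in the model, added after the values were seen, 14 of the 57 had an unadjusted p under 0.05 (24.6%, beside 10.1% of all genes), and *Rab3c* and *Rab3d* differed by 0.91 and -0.48. The differences of *Rab3b* and *Syt16* were larger with this term than without it, at 0.63 (unadjusted p = 0.000657) and 1.14 (unadjusted p = 0.000187), with no adjusted p under 0.05. The part of the endocrine makeup was not tested. No member showed an interaction of genotype and sex at an adjusted p under 0.05 in edgeR or DESeq2, and in edgeR 0 of the 57 had an unadjusted p under 0.05, beside 1.48% of all genes. This model leaves 2 residual degrees of freedom.

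**Figure D5:**
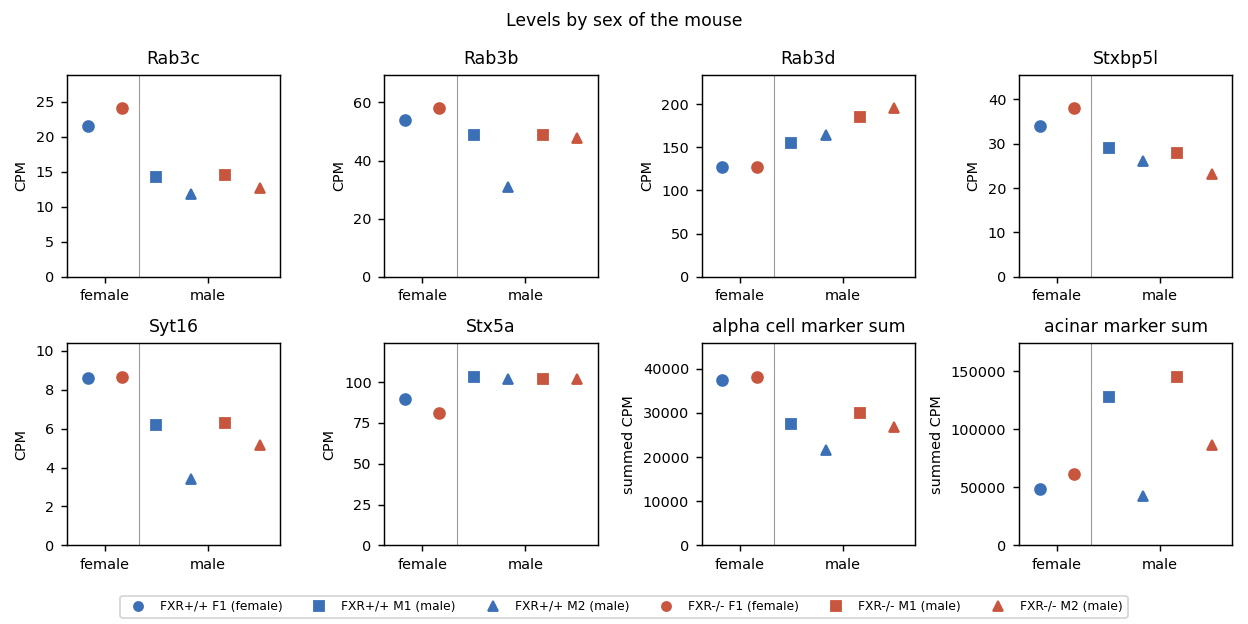
CPM of 6 genes in the 2 female and 4 male libraries, with the summed levels of α-cell and acinar markers as summed CPM; colour marks the genotype and shape the replicate. Both female libraries lie above all males for *Rab3c*, *Rab3b*, *Stxbp5l*, *Syt16* and the α-cell markers, and below them for *Rab3d* and *Stx5a*.

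The wider exocytosis pathway was read from a list of 60 further genes that hold the NSF and SNAP recycling proteins, the exocyst, CAPS proteins, synaptotagmin-like proteins, the remaining RIM and Munc13 genes, synapsins and the other Golgi and endosomal SNAREs. Of these, 57 were tested and 0 had an adjusted p under 0.05 in edgeR (0% of all genes), with 32 higher and 25 lower in FXR-/-, a median log2 fold change of 0.01 and a range from -0.89 to 1.07. An unadjusted p under 0.05 was reached by 5 (8.77%, beside 10.3% of all genes), which are named here after their values were seen. *Rims3*, a short RIM protein, stood at 57.9, 49.1 and 54.1 CPM in FXR+/+ and at 39.8, 38.9 and 32.2 CPM in FXR-/-, without overlap. Its log2 fold change was -0.54 ± 0.0974, with an adjusted p of 0.225 in edgeR, 0.0756 with the replicate block and 0.00206 in DESeq2, where it was the only one of the 57 called (1.16% of all genes). *Sytl4*, the granuphilin that docks insulin granules, stood at 349, 310 and 377 CPM in FXR+/+ and at 278, 258 and 295 CPM in FXR-/- (-0.32 ± 0.108; adjusted p = 0.444 in edgeR). The other 3 had positive values, *Rab27b* of 0.96 ± 0.325, *Myrip*, a Rab27 effector, of 0.44 ± 0.145 and *Syn1*, synapsin I, of 0.32 ± 0.110, each with an adjusted p of 0.431 to 0.449.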

How the data were processed

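Islet mRNA was selected with oligo(dT), primed with random hexamers and sequenced on an Illumina platform, per the labels. The authors deposited counts of reads per gene and per exon as whole numbers without normalization, and HISAT is listed in the submitters' processing notes. The version, counting rule, annotation and use of strand are not given in the sources used here. Exon positions are those of GRCm38. The authors also deposited their own comparison of the genotypes (fold changes and p-values), which was not used. No column of sample values was left unused (0).

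Libraries held 20629306 to 30139235 gene counts. In R 4.3.3, genes passing filterByExpr of edgeR 4.0.16 (minimum count 10, minimum total 15; 14619 genes) were scaled by TMM and tested with glmQLFit and glmQLFTest in a model of sex plus genotype (3 residual and 4.43 prior degrees of freedom). P-values were adjusted by the Benjamini-Hochberg method over all genes tested. Standard errors were taken from the F statistic. Exons (26998 of 139263) were tested in the same way. Exact permutation tests used all 20 relabellings and were two-sided. Levels between genes were divided by the longest coding transcript in GENCODE vM21, or by the exon lengths of the exon table. *Vamp7* has a length from the exon table only. The scripts were tested on simulated counts with known changes.

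The alternatives were DESeq2 1.42.0, other scalings and filters, legacy dispersions, no term for sex, the replicate number as a block, a term for acinar RNA, summed exon counts and each library left out. With either female library left out, the term for sex takes up the other. Both of these fits then compare the genotypes over the male libraries and are not separate checks. The fits without both male 1 libraries, and the acinar term in the comparison of the sexes, were added after the values were seen. Deviations of same-numbered libraries from their genotype means had Pearson correlations over all genes tested of 0.373, 0.419 and 0.346 (female 1, male 1, male 2). Those of other pairs were at 0.0628 or below, but deviations from a shared mean are not independent. The labels do not say what the numbers mark. The female 1 pair also shares sex, and the male 1 pair the highest acinar sums. The replicate block therefore takes the pairing of same-numbered libraries as an assumption. No 2 libraries agreed within sampling noise.

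Genes named with fitted changes were *Nr1h4*, the 3 members of each role with the highest mean CPM and members with an unadjusted genotype p under 0.05. Values of 2 members are not reported here by name, although both stay in the fits, counts and medians. Exons named were those of *Snap25* and those with an unadjusted p under 0.01. Other genes are said to be named after their values were seen. The members and lists were chosen with earlier results of these data known.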

Additional observations from a re-analysis of the deposited data

How the results depend on the processing

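No member was called for genotype under the main model or 16 of 17 alternatives. The exception was the fit without both male 1 libraries, with 1 (*Cplx1*). The count at an unadjusted genotype p under 0.05, 2 in the main model, was 4 with library size alone, 10 with the replicate block, 5 with summed exon counts, 10 without both male 1 libraries and 2 to 7 with 1 library left out, where the 7 came without FXR+/+ male 1. The members called for sex were 2 in DESeq2, 1 without both male 1 libraries and 0 in the other fits, those with 1 library left out included. Called exons and interactions stayed at 0 in every alternative run.

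The log2 fold change of *Nr1h4* passed the threshold with DESeq2 and the replicate block (-1.08 in both) and without both male 1 libraries (-1.20). Of 26 named genes, 17 kept their direction in all 17 alternatives, *Unc13a* between 0.18 and 0.39 and *Syt11* between 0.10 and 0.21. With library size alone the sign turned for *Snap91* (-0.00554), *Syt13* (-0.0745), *Snap23* (-0.0762), *Unc13b* (-0.0399) and *Syt9* (-0.0428). With summed exon counts it turned for *Snap91* (-0.0193), *Snap47* (0.0706), *Snap23* (-0.0477), *Unc13b* (-0.0507), *Rab3a* (0.0132) and *Syt7* (0.0134), with a term for acinar RNA for *Rab3a* (0.0289) and *Syt7* (0.0313), and without both male 1 libraries for *Syt13* (-0.0532), *Snap23* (-0.223) and *Unc13b* (-0.0285). With 1 library left out it ranged from -0.0630 to 0.0351 for *Snap47*, -0.0571 to 0.0836 for *Syt13*, -0.132 to 0.146 for *Snap23*, -0.0416 to 0.0184 for *Stxbp2*, -0.127 to 0.111 for *Rab3a* and -0.0525 to 0.0348 for *Syt7*. The cause was not tested. The replicate block changed no call of a member, and where 1 library was left out of a group of the sexes the lone female library was assumed to vary like the males. The longest 95% interval was that of *Stx11*, a member under 1 CPM, at -1.11 to 2.67 log2 units. Its counts were 17, 13 and 6 in FXR+/+ and 11, 37 and 8 in FXR-/-. *Cplx1*, at a mean of 3.73 CPM, had a longer interval (-0.35 to 2.14) than *Syt12* at 0.914 CPM (-0.97 to 0.83). The part of depth was not tested.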
